A study of Mus musculus with 12 samples.

Results

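Partially reprogrammed melanoma cells were compared with their control cells while both were under trametinib, an inhibitor of the kinases MEK1 and MEK2, across 18193 genes. The comparison used 6 of the 12 arrays of the series, 3 from "+dox" and 3 from "-dox" cells, all treated with trametinib for 72 h and collected at day 20. The other 6 arrays hold the same pair of cell states under the solvent DMSO for 72 h and served for comparison. All 12 arrays are from C790, a mouse melanoma cell line with mutant Nras, and all cells had received the same pair of lentiviral vectors. One vector carried Oct4, Klf4, Sox2 and a blasticidin-resistance gene under a doxycycline-inducible promoter. The other encoded the doxycycline-dependent activator rtTA with the red fluorescent protein mCherry. Doxycycline was given only to the "+dox" cells, so the drug itself and the factors it switched on cannot be told apart in these arrays. The methods describe selection with blasticidin for the doxycycline-treated cells and medium without doxycycline for the "-dox" cells. The trametinib dose given to the cells on the arrays was not stated. The methods speak of independent experiments for the data in general, but the labels do not say what the 3 replicates of a group on the arrays are, so the p-values below measure only the spread between these samples, which may be technical.

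Forced expression of Oct4, Klf4 and Sox2 moves a differentiated cell towards a pluripotent state, and a culture stopped early holds partially reprogrammed cells that have left their old programme without completing the new one. In a melanoma cell with mutant Nras, growth signals pass from RAS through RAF to MEK and from MEK to ERK, the kinase that drives cyclin D1, the FOS and EGR transcription factors and the feedback inhibitors of the SPRY, SPRED and DUSP families. Trametinib blocks the step from MEK to ERK, and the RNA of these genes falls when ERK is inhibited.

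Values are log2 expression from Affymetrix mouse genome arrays, so a difference of 1 is a doubling. A change is the mean of the "+dox" arrays minus the mean of the "-dox" arrays (n = 3 against 3). Its standard error (SE) comes from the limma fit to all arrays of the series, DMSO arrays included, with the spread shared between genes. The SE therefore does not measure the spread of the compared arrays alone. In the text below "-dox 1" to "-dox 3" and "+dox 1" to "+dox 3" are the replicates under trametinib, and DMSO arrays are named as such. A gene was called when limma's p-value, adjusted over all 18193 genes by the Benjamini-Hochberg method, was under 0.05. Probe sets of 86 odorant, vomeronasal and taste receptors, which a melanoma cell is not known to use, gave a background level of 4.86, and for a gene with 1 group mean below it the text writes "at least", counting from that level to the other mean. Pearson correlations between arrays, over all genes, were 0.985 to 0.995 within the "-dox" group, 0.993 to 0.994 within the "+dox" group and 0.977 to 0.987 between them. No array of either group stood apart in its median, which ran from 6.52 to 6.78 over the series, but "-dox" replicate 1 carried much more acute-phase and chemokine RNA than the others and is taken up below. Among the DMSO arrays "-dox" replicate 1 received the lowest quality weight in limma, 0.195.

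The labelled cell type was checked against markers. Of 9 melanocyte markers, Tyr, Tyrp1, Dct, Mlana and S100b lay under the background level on all 6 arrays, while Mitf, Pmel, Sox10 and Pax3 were measured above it, and none was called between the groups. The pigment enzymes that define a differentiated melanocyte were therefore at background in the control cells as well as in the reprogrammed cells. Of 8 markers of pluripotent cells, Nanog, Zfp42 and Lin28a lay under background on all 6 arrays and none was called. The mean over the 8 ranged from 4.75 to 4.92 on the "-dox" arrays and from 4.66 to 4.74 on the "+dox" arrays. For other cells that a culture could hold, the defining genes Ptprc and Tyrobp of leukocytes, Pecam1 and Cdh5 of endothelium, Thy1 and Dpt of fibroblasts, Krt14 and Trp63 of keratinocytes and Myog of muscle were under background on all 6 arrays. Others of these markers were above it, with group means of 8.67 in "-dox" and 8.35 in "+dox" cells for Laptm5 and 6.73 and 6.05 for Cd68 of leukocytes, and 13.29 and 12.75 for Acta2 and 6.52 and 6.51 for Des of muscle, while Tek of endothelium (4.94 and 4.99) and Krt5 of keratinocytes (4.89 and 5.02) lay close to it. None of these 6 was called. Of the 5 leukocyte markers only Cd3g rose, by 5.52. Cd68 changed by -0.69 and Laptm5 by -0.33, and Ptprc and Tyrobp stayed under background. The mean over the 5 went from 4.85 to 5.31 in "-dox" cells to 5.73 to 6.16 in "+dox" cells. Of the 4 fibroblast markers Pdgfra and Col1a1 fell, and the mean over the 4 went from 6.27 to 6.71 down to 5.6 to 5.75. In a bulk RNA sample fewer cells of a type and less RNA per cell cannot be told apart, and the part of other cell types in the results was not tested.

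Under trametinib 614 genes, 3.37% of those tested, were called between reprogrammed and control cells. Of these, 355 rose in "+dox" cells (1.95% of all genes) and 259 fell (1.42%). A change above 2-fold was seen in 358 genes (1.97%), 213 higher (1.17%) and 145 lower (0.797%), and above 4-fold in 96 genes, 58 higher and 38 lower. In 86 of the 358 genes 1 group mean was under the background level, and in 13 both were. The arrays of the 2 groups did not overlap in 3655 genes, which is 20.1% of all genes (1719 higher, 9.45%, and 1936 lower, 10.6%), so non-overlap alone marked far more genes than the test did. The division into rises and falls depended on the scaling: 57.8% of the called genes were higher in "+dox" cells as deposited, and 40.9% of 719 called genes after each array was centred on its median, which shifted the median change of all genes by -0.09. The same comparison gene by gene with equal variances, without limma's sharing of the spread between genes and arrays and here called the unmoderated test, called 0 genes after adjustment and 2341 at an unadjusted p under 0.05, and limma called 2625 at that unadjusted level.

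**Figure D1:**
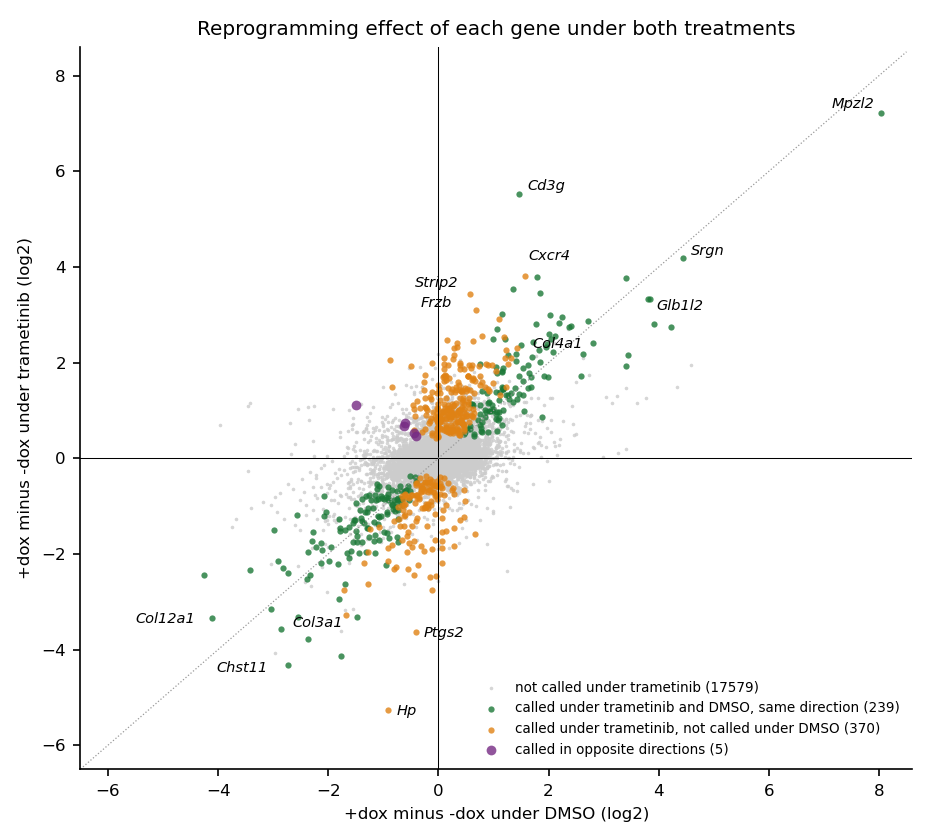
Change of each of 18193 genes between reprogrammed and control cells under trametinib (vertical axis, log2) against the change of the same gene under DMSO (horizontal axis, log2). Each point is a gene, the dotted line marks equal changes, and colours separate the 239 genes called under both treatments in 1 direction, the 370 called under trametinib and not under DMSO, the 5 called in opposite directions and the 17579 genes not called under trametinib. Mpzl2 lies near the line at the top right, and Cd3g, Cxcr4, Strip2, Frzb, Ptgs2 and Hp lie away from it.

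The largest rises included adhesion, receptor and secreted proteins. RNA of Mpzl2 and Cd3g was under background in the control cells, while the control means of Srgn (5.17) and Fetub (6.16) were above it. Mpzl2, which encodes an immunoglobulin-family adhesion protein of epithelia, measured 3.75, 3.80 and 3.37 on the "-dox" arrays and 10.90, 10.54 and 11.16 on the "+dox" arrays. The groups were far apart, with the control arrays all under background, and the rise of 7.23 ± 0.17 (adjusted p = 1.6e-09) was at least 6.01, or at least 64.3-fold. All 3 probe sets of Mpzl2 rose, by 4.80 to 7.28. Cd3g, the gamma chain of the T-cell receptor's CD3 complex, stood at 3.57, 3.61 and 3.27 in "-dox" cells and at 8.78, 9.43 and 8.81 in "+dox" cells. Its change was 5.52 ± 0.20 (adjusted p = 9.5e-08), at least 4.15 or 17.7-fold. Srgn encodes serglycin, a proteoglycan of secretory granules, and its arrays read 6.07, 5.06 and 4.39 against 9.85, 9.35 and 8.88. The groups did not overlap and the rise was 4.19 ± 0.49, or 18.2-fold (adjusted p = 8.2e-04). Fetub, the secreted protease inhibitor fetuin-B, went from 6.82, 5.78 and 5.89 to 9.98, 10.13 and 9.81, a rise of 3.81 ± 0.44 or 14.0-fold (adjusted p = 7.7e-04).

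Cxcr4, the receptor of the chemokine CXCL12, was at 4.02, 3.68 and 4.10 on the "-dox" arrays and at 8.09, 6.99 and 8.11 on the "+dox" arrays, with every control array under background. Its rise was at least 2.87 (adjusted p = 3.9e-05). She, an SH2-domain adaptor, measured 5.28, 3.55 and 4.03 against 8.59, 8.13 and 7.43 and rose by at least 3.19 (adjusted p = 5.3e-04). Limch1, which encodes an actin- and myosin-binding protein, read 5.07, 4.52 and 4.39 against 7.90, 8.07 and 8.0. These reprogrammed arrays lay close together, and the change of 3.33 ± 0.15 (adjusted p = 1.2e-06) was at least 3.13. Strip2, a subunit of the STRIPAK phosphatase complex, rose from 3.63, 3.36 and 3.02 to 7.17, 6.97 and 6.19, by at least 1.92 (adjusted p = 3.6e-05). Dmd, the dystrophin gene, rose by at least 1.66 (adjusted p = 0.0014), Glb1l2, a beta-galactosidase relative, by at least 2.46, and Tspan8, a tetraspanin of the cell surface, by at least 1.32 (adjusted p = 0.0070). Pgap4, which acts in the maturation of GPI anchors, was above background in both groups, at 5.44, 4.96 and 5.22 against 8.45, 7.98 and 8.19, and rose by 3.00 (adjusted p = 4.5e-05). Nat8f3, an acetyltransferase-family gene, rose by at least 1.66 (adjusted p = 2.9e-04). The 2 remaining genes among the 15 largest rises, Dkk2 and Frzb, are secreted Wnt modulators and stand with that pathway below. In none of the 15 genes did the arrays of the groups overlap, which the choice of these genes required.

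Cd3g and Mpzl2 are neighbours. In the RefSeq order of genes on mouse chromosome 9 (GRCm38), the genes Cd3d and Cd3e lie between them and Mpzl3, which encodes another adhesion protein of the Mpzl2 family, follows. Over the 16 protein-coding genes from 6 before Cd3g to 6 after Mpzl2, 14 were measured and 3 were called, against 3.37% of all genes. Of these 3, Cd3g and Mpzl2 define the window and were picked for their rises. The count therefore does not test the neighbourhood, and the only further call in it was Mpzl3. Mpzl3 read 4.54, 4.07 and 4.14 in "-dox" cells, all under background, and 5.30, 5.25 and 5.0 in "+dox" cells, all above it. Its rise of 0.93 (adjusted p = 0.0096) was at least 0.32, and it was lost without "-dox" 2 (adjusted p = 0.051). Of the genes in between, Cd3d changed by 0.36 and Cd3e by -0.03, and neither was called. This window was chosen after its values were seen.

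**Figure D2:**
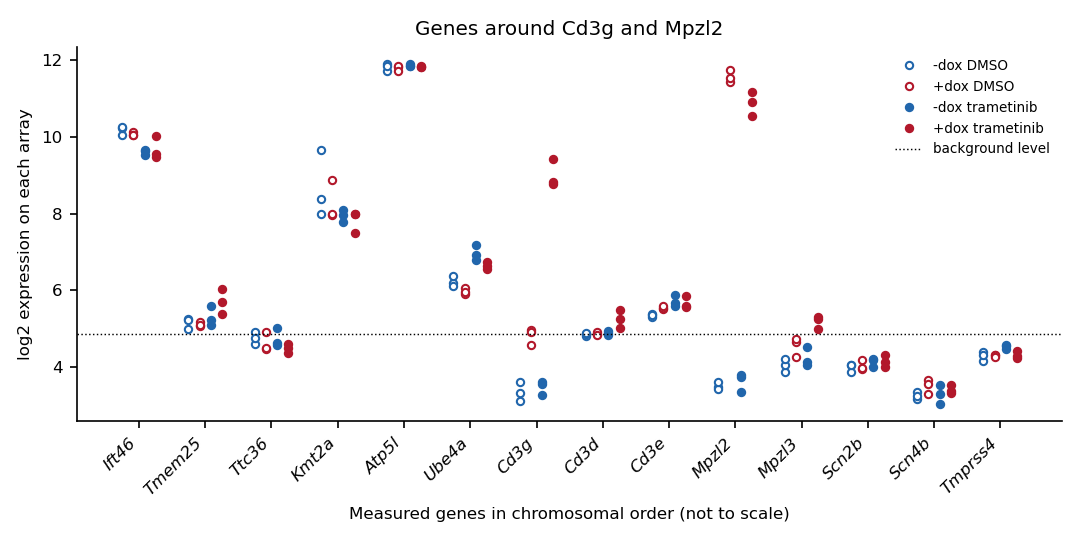
Log2 expression on each array (vertical axis) of the 14 measured genes around Cd3g and Mpzl2, in their order along chromosome 9 and not to scale. Blue marks -dox and red +dox, open symbols DMSO and filled symbols trametinib, and the dotted line is the background level of 4.86. Mpzl2 is high in +dox cells under both treatments, Cd3g is high in +dox cells under trametinib, and Cd3d and Cd3e between them show no such step.

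The promoters of called genes were searched for 3 short sequences that the induced factors are known to bind: the octamer ATTTGCAT for Oct4, which reads ATGCAAAT on the other strand, CATTGTT for Sox2 and its relatives, whose other strand is AACAATG, and CCACACCC for Klf4 and its relatives, with GGGTGTGG on the other strand. The window was the 250 bases before each RefSeq gene start in GRCm38.p6, and a gene counted if any of its windows held the letters on either strand. Of the 213 genes that rose over 2-fold, 159 had a promoter sequence here and 13 of those (8.18%) held the octamer, against 227 of 14452 genes in all (1.57%). Among the genes that fell over 2-fold the octamer was in 6 of 110 (5.45%). Under DMSO it was in 10 of 153 genes that rose over 2-fold (6.54%) and in 5 of 198 that fell (2.53%). The Sox sequence was in 9 of the 159 rising genes (5.66%), 2 of the 110 falling genes (1.82%) and 2.73% of all genes, and the Klf sequence in 6 (3.77%), 7 (6.36%) and 4.22%. Promoters poor in G and C hold the octamer more often. Counted by window, it was in 2.34% of all windows under 50% GC and in 0.975% of the others. For genes that rose under trametinib these shares were 7.81% (5 of 64 windows) and 5.0% (8 of 160). For genes that fell they were 10% (3 of 30) and 3.54% (4 of 113). Among the latter, 2 overlapping Tnc windows hold the same octamer, 1 in each class. These are matches of letters, not measured binding, and no test was made on them. The windows below are shown because their genes are among the largest changes and because the same octamer stands before genes that rose and genes that fell. Each is written 5′ to 3′ on the gene's strand, in lower case with a match in capitals.
Srgn, chr10:62507758-62508007, minus strand: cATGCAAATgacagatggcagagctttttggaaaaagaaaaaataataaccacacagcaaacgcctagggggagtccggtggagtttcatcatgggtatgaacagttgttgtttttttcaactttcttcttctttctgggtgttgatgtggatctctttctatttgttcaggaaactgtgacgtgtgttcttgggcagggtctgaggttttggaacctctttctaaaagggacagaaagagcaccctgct
Tspan8, chr10:115817034-115817283, plus strand: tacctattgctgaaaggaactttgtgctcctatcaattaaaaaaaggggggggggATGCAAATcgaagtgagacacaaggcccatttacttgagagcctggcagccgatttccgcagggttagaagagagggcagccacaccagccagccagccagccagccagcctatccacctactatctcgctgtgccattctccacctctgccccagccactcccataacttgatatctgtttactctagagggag
Limch1, chr5:66857219-66857468, plus strand: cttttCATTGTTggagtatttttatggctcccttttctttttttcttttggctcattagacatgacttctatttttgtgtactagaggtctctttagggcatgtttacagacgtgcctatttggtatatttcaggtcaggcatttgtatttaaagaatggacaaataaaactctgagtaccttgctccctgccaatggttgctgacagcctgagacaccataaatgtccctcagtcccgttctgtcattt
Cd3g, chr9:44980432-44980681, minus strand: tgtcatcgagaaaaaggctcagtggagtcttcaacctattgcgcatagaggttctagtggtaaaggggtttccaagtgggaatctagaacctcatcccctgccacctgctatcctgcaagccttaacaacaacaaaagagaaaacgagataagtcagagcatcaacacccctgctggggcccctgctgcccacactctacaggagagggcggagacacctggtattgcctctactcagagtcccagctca
Col3a1, chr1:45311288-45311537, plus strand: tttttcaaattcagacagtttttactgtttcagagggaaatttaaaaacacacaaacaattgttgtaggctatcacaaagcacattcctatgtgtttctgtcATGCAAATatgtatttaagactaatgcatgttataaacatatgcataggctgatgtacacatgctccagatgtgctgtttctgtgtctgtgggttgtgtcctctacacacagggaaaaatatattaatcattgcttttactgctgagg
Tnc, chr4:64046937-64047186, minus strand: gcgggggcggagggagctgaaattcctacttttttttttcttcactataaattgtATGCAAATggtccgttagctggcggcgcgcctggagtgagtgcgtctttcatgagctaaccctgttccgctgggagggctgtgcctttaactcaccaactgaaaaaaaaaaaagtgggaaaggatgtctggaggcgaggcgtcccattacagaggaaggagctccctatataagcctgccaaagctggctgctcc
Tnfaip6, chr2:52037863-52038112, plus strand: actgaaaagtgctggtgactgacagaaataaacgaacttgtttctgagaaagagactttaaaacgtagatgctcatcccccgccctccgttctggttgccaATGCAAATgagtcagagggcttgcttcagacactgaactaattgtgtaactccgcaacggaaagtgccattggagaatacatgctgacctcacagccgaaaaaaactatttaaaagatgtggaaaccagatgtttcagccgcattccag
The Srgn, Tspan8, Col3a1, Tnc and Tnfaip6 windows hold the octamer as ATGCAAAT, the Limch1 window holds the Sox sequence, and the Cd3g window holds none of the 3. Srgn and Tspan8 rose and Col3a1, Tnc and Tnfaip6 fell.

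**Figure D3:**
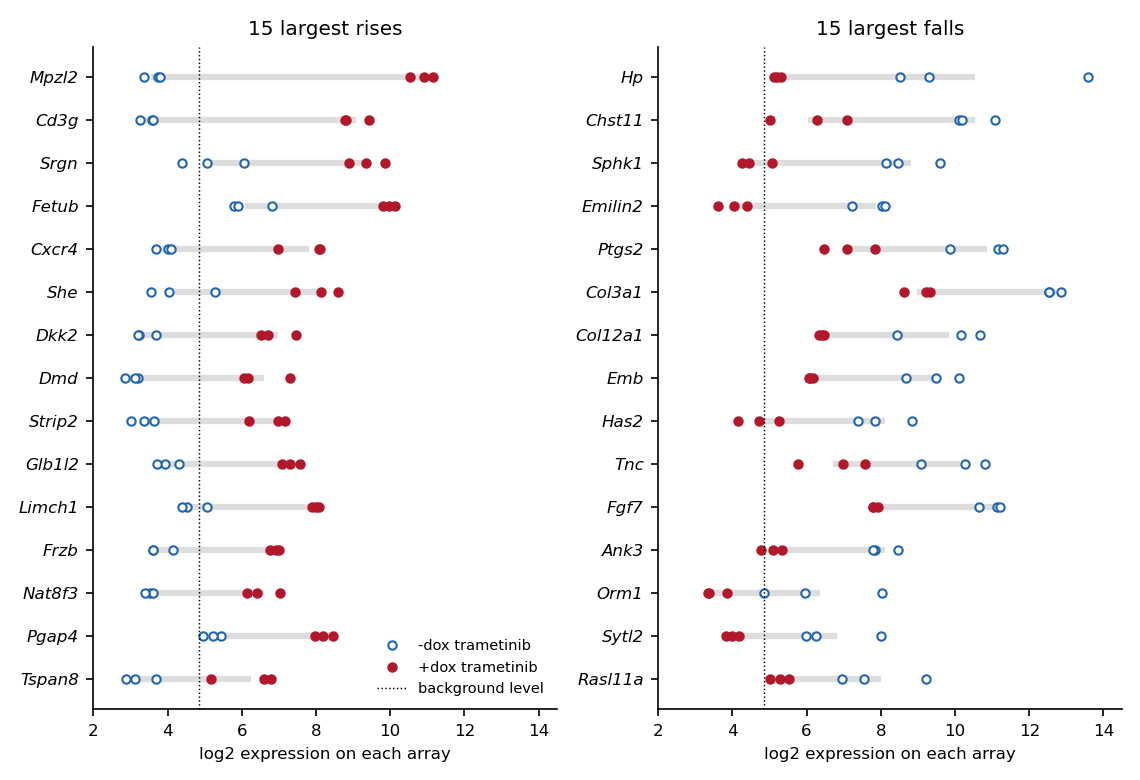
Log2 expression on each of the 6 trametinib arrays (horizontal axis) for the 15 largest rises (left) and the 15 largest falls (right), open blue circles for -dox, filled red circles for +dox, and grey bars joining the group means. The dotted line is the background level of 4.86. Most rising genes lie under that line in control cells, while the falling genes mostly start well above it, and Hp is the gene whose control arrays are furthest apart, from 8.52 to 13.58.

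Among the 15 largest falls were the sulfotransferase gene Chst11 and the hyaluronan synthase gene Has2. Chst11, a chondroitin sulfotransferase, measured 10.10, 11.07 and 10.19 on the "-dox" arrays and 6.27, 7.10 and 5.0 on the "+dox" arrays. The fall was 20.1-fold, or -4.33 ± 0.44 (adjusted p = 3.2e-04). Has2, the main synthase of hyaluronan, went from 7.39, 8.84 and 7.83 to 5.25, 4.72 and 4.15, with the reprogrammed mean under background, a fall of at least 3.16 (adjusted p = 4.1e-04). Of 3 genes named after their values were seen because their products bind or cross-link hyaluronan, all were lower in "+dox" cells. Vcan, the proteoglycan versican, read 9.87, 9.99 and 8.97 against 7.23, 7.81 and 6.83 and fell by 2.32 on the log2 scale (SE 0.29, adjusted p = 0.0013). Tnfaip6, which carries the heavy chains that stabilise hyaluronan, read 6.86, 8.42 and 6.84 against 4.76, 5.06 and 4.92 and fell by 2.46 (SE 0.33, adjusted p = 0.0022). Ptx3, the pentraxin of the same matrix, read 12.82, 13.02 and 12.01 against 9.24, 11.26 and 10.42, a change of -2.31 ± 0.47 (adjusted p = 0.022). The groups stayed separate in all 3 genes, but the call for Ptx3 was lost without "+dox" 1, "+dox" 3 or "-dox" 2 (adjusted p = 0.066, 0.055 and 0.10) and when only the 6 trametinib arrays were fitted (0.074).

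Of 31 genes of the extracellular matrix, 2 rose and 7 fell, against 1.95% and 1.42% of all genes, and 22 were not called. Their median change was -0.51, against -0.02 over all genes, and in 12 of the 31 all "+dox" arrays lay below all "-dox" arrays, while in 4 all lay above, against 10.6% and 9.45% of all genes. The genes that fell encode fibrillar and interstitial proteins. Col3a1, the chain of type III collagen, measured 12.52, 12.85 and 12.53 in control cells and 9.32, 8.63 and 9.22 in reprogrammed cells, an 11.9-fold fall (-3.58 ± 0.31, adjusted p = 1.2e-04). Col12a1, a collagen that decorates fibrils, read 8.43, 10.66 and 10.16 against 6.47, 6.41 and 6.34 and fell by 3.34 (SE 0.48, adjusted p = 0.0034). Tnc, the anti-adhesive glycoprotein tenascin-C, read 9.07, 10.80 and 10.28 against 5.77, 7.58 and 6.98 and fell by 3.27 (SE 0.56, adjusted p = 0.0088). Control arrays of Col12a1 and Tnc were more than 1.5 apart, with "-dox" 1 the lowest in both. Fibronectin, Fn1, read 13.35, 13.80 and 13.78 against 12.39, 12.16 and 12.53, a fall of 1.28 (SE 0.19, adjusted p = 0.0035). Col1a1, a chain of type I collagen, fell by 1.73 (SE 0.30, adjusted p = 0.0094), the small proteoglycan biglycan, Bgn, by 2.18 (adjusted p = 0.018) and periostin, Postn, by at least 0.14 (adjusted p = 0.028).

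The basement membrane collagens moved the other way. Col4a1 measured 9.47, 10.07 and 9.62 on the "-dox" arrays and 12.09, 12.04 and 12.10 on the "+dox" arrays, a rise of 2.36 ± 0.17 (adjusted p = 3.9e-05). Col4a2, whose chain pairs with that of Col4a1 and whose gene shares its promoter, went from 8.48, 9.25 and 8.95 to 10.99, 11.03 and 11.03, by 2.12 ± 0.21 (adjusted p = 2.9e-04). The 3 reprogrammed arrays were nearly identical in both genes. The rises of Col4a1 and Col4a2 and the falls of Col3a1, Col12a1 and Tnc held in every alternative fit other than the unmoderated test. Biglycan was lost without "+dox" 1, "+dox" 2, "-dox" 2 or "-dox" 3 (adjusted p = 0.071 to 0.079), periostin without any 1 of the "+dox" arrays or "-dox" 2 (0.077 to 0.094), and Fn1 when the probe sets of a gene were averaged (0.073). With only the 6 trametinib arrays biglycan (0.063), Col1a1 (0.063) and periostin (0.11) were lost and 4 matrix genes fell. Without "-dox" 1 the number of matrix genes that fell was 11, where 382 of all genes fell, against 259 in the main fit.

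Emilin2, an elastin-microfibril protein, read 8.03, 8.11 and 7.22 against 4.04, 4.40 and 3.6, all 3 reprogrammed arrays under background, and fell by at least 2.93 (adjusted p = 3.1e-05). Of 19 matrix proteases and their inhibitors 3 fell and 0 rose, against 1.42% and 1.95% of all genes. Mmp19, a matrix metalloproteinase, measured 8.58, 8.71 and 8.16 against 6.35, 6.22 and 6.43 and fell by 2.15 (SE 0.37, adjusted p = 0.0085). Plat, the tissue plasminogen activator, read 7.59, 8.08 and 7.07 against 4.88, 5.70 and 4.82 and fell by 2.45 (adjusted p = 0.020). Timp1, an inhibitor of these proteases, went from 12.57, 12.83 and 12.40 to 12.04, 11.99 and 11.75 (-0.67, adjusted p = 0.028). Arrays did not overlap in any of the 3. Plat was lost without "+dox" 1, "+dox" 3 or "-dox" 2 (adjusted p = 0.066 to 0.094) and Timp1 without "-dox" 2 or any of the "+dox" arrays (0.059 to 0.12) and with the 6 trametinib arrays alone (0.063).

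**Figure D4:**
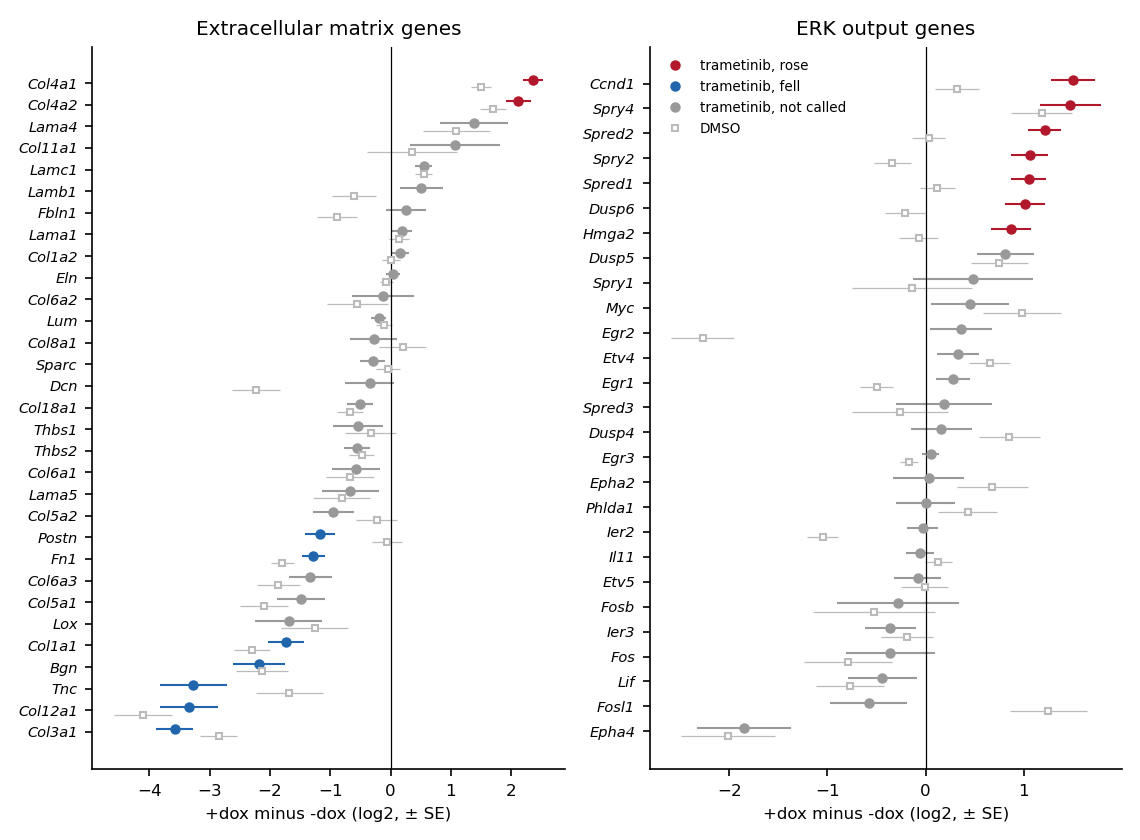
Change between reprogrammed and control cells (horizontal axis, log2, with SE) of each measured extracellular matrix gene (left) and ERK output gene (right). Filled circles are the change under trametinib, red where it rose, blue where it fell and grey where it was not called, and open squares are the change under DMSO. On the left 7 matrix genes fall and Col4a1 and Col4a2 rise, with DMSO values mostly close by. On the right 7 ERK output genes rise under trametinib, with all DMSO values of those 7 lower than the trametinib values.

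Genes of inflammation were lower on average in the reprogrammed cells, and most of that average difference came with a single control array. Of 27 cytokine, chemokine and acute-phase genes 2 fell, Hp and Ptgs2, and 0 rose, against 1.42% and 1.95% of all genes. A negative change was seen in 23 of the 27. The mean over the 27 genes was 8.79, 7.04 and 6.77 on the "-dox" arrays and 6.5, 6.64 and 6.2 on the "+dox" arrays, so "-dox" 1 lay well above the 5 other arrays. Under DMSO too the list mean was highest on "-dox" replicate 1, at 7.72 against 6.36 and 6.38 on the other "-dox" arrays. In the trametinib comparison the median change was -0.53, and -0.15 without "-dox" 1. Ptgs2, the inducible cyclooxygenase, was not carried by it, with 11.16, 11.30 and 9.87 against 7.08, 7.84 and 6.48, a 12.5-fold fall (-3.64 ± 0.43, adjusted p = 8.4e-04) that held in every alternative fit but the unmoderated test. Hp, the haemoglobin scavenger haptoglobin, read 13.58, 8.52 and 9.29 against 5.32, 5.11 and 5.19. Its fall of 5.26 on the log2 scale (SE 1.12, adjusted p = 0.027) was 3.70 without "-dox" 1, where it stayed called (adjusted p = 0.017). It was lost without any 1 "+dox" array (adjusted p = 0.071 to 0.088) and with the 6 trametinib arrays alone (0.081). Orm1, the acute-phase protein orosomucoid, showed the same order of control arrays, 8.04, 5.95 and 4.85 against 3.34, 3.38 and 3.85, and fell by at least 1.42 (adjusted p = 0.025). The call was kept without "-dox" 1 (adjusted p = 0.0041), the control array furthest above background, and it was lost without "+dox" 1, "+dox" 2 or "-dox" 2 (0.094, 0.088 and 0.067) and in the 6 trametinib arrays (0.12).

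Further members of that list were far higher in "-dox" cells on average and were not called. Saa3, an acute-phase apolipoprotein, read 14.22, 6.23 and 5.59 in "-dox" cells and 5.33, 5.62 and 5.56 in "+dox" cells, a change of -3.18 ± 1.90 (adjusted p = 0.52) that became -0.41 without "-dox" 1. Lcn2, the iron-trapping lipocalin, read 12.35, 5.72 and 5.57 against 3.89, 3.75 and 3.76 (-4.08 ± 2.14, adjusted p = 0.44), a difference of at least 3.02, with every "+dox" array under background and "-dox" 1 far above the other controls. Among the DMSO arrays "-dox" replicate 1 read 10.16 for Saa3 and 12.59 for Lcn2, against 5.72 or less on the other "-dox" arrays. Il6, the interleukin, was high in all 3 control arrays under trametinib, at 13.11, 12.53 and 10.92 against 9.21, 9.61 and 6.92. Its groups did not overlap, yet the change of -3.61 ± 0.97 missed the threshold (adjusted p = 0.074) and passed it without DMSO "-dox" replicate 1 (0.032).

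Other genes among the 15 largest falls follow. Sphk1, which makes sphingosine-1-phosphate, measured 8.14, 9.60 and 8.45 against 4.44, 5.07 and 4.25 and fell by at least 3.87 (adjusted p = 1.4e-04). Emb, the membrane glycoprotein embigin, read 9.48, 10.11 and 8.69 against 6.09, 6.16 and 6.07 and fell by 3.32 (adjusted p = 6.1e-05). Ank3, the membrane-skeleton adaptor ankyrin-G, read 7.84, 8.45 and 7.79 against 5.34, 4.78 and 5.10 (-2.95, adjusted p = 5.4e-05). These groups were separated by more than 2 log2 units. Sytl2, a vesicle-trafficking protein, fell by at least 1.89 (adjusted p = 0.019), and Rasl11a, a RAS-like GTPase, fell by 2.63 from 6.96, 9.22 and 7.55 to 5.01, 5.29 and 5.53 (adjusted p = 0.0081). Sytl2 was lost without "-dox" 2 or any 1 "+dox" array (adjusted p = 0.053 to 0.065), and Rasl11a with the 6 trametinib arrays alone (0.056).

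Several genes downstream of ERK were higher in the reprogrammed cells under the inhibitor. Of 27 genes known to follow ERK activity 7 rose and 0 fell, against 1.95% and 1.42% of all genes, and the median change was 0.19. Ccnd1, cyclin D1, measured 8.94, 8.64 and 8.51 on the "-dox" arrays and 9.64, 10.74 and 10.22 on the "+dox" arrays. The groups did not overlap, the rise was 1.5 ± 0.22 (adjusted p = 0.0038), all 3 probe sets of the gene rose by 1.41 to 1.58, and the call held in every alternative fit but the unmoderated test. Spred1, Spred2 and Spry2 encode feedback inhibitors of the pathway. Spred1 went from 7.91, 7.55 and 7.47 to 8.45, 8.82 and 8.81 (1.05 ± 0.18, adjusted p = 0.0079), Spred2 from 7.94, 7.38 and 7.76 to 8.96, 8.68 and 9.07 (1.21 ± 0.17, adjusted p = 0.0025) and Spry2 from 6.37, 6.68 and 6.43 to 7.12, 7.74 and 7.81 (1.06, adjusted p = 0.011). Dusp6, the phosphatase of ERK itself, read 3.75, 4.42 and 3.68 against 4.83, 5.24 and 4.81, with the control arrays under background and the reprogrammed arrays close to it, a rise of at least 0.10 (adjusted p = 0.018). Spry4 rose by 1.47 (adjusted p = 0.027) with both means under background, so the size of the rises of Dusp6 and Spry4 is not measured. Hmga2, a chromatin protein, read 7.92, 7.65 and 7.25 against 8.29, 8.70 and 8.43 (0.87, adjusted p = 0.041).

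These rises were small beside the level in the same cells without the drug. The mean over the 27 ERK output genes was 6.64, 6.46 and 6.28 on the "-dox" arrays and 6.56, 6.79 and 6.83 on the "+dox" arrays under trametinib, with "-dox" 1 above the lowest "+dox" array, and it was 9.21 to 9.51 on the DMSO arrays. The immediate-early genes were not called: Egr1 changed by 0.28 (adjusted p = 0.52), Fosl1 by -0.58 (0.60) and the ERK phosphatase Dusp4 by 0.16. Several of these calls depended on how a gene was measured. With the probe sets of each gene averaged, 2 of the 27 genes rose, and Spred2 (adjusted p = 0.81), Spred1 (0.11), Spry2 (0.055), Spry4 (0.18) and Hmga2 (0.21) were lost. Spred2 has 5 probe sets, of which 1 was called and 2 had the opposite sign. Without "+dox" 2 or without "-dox" 3 the count was 4, as Dusp6 (0.075 and 0.080), Spry4 (0.11 and 0.080) and Hmga2 (0.15 and 0.16) were lost. Spry4 was also lost without "-dox" 1, "-dox" 2 or "+dox" 3 (0.059 to 0.083). Hmga2 was lost without any single array other than "-dox" 1, DMSO replicate 1 of either state or DMSO "+dox" replicate 3 (0.058 to 0.16), with the replicate block (0.052) and after centring (0.059), and Dusp6 and Hmga2 in the 6 trametinib arrays (0.074 each).

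Mitosis genes were higher in reprogrammed cells throughout the list, but few passed the test. All 29 had a positive change, with a median of 1.14, 12 had every "+dox" array above every "-dox" array (9.45% of all genes), and 5 were called, all higher (1.95% of all genes). Cenpe, a kinesin of the kinetochore, read 6.86, 6.49 and 6.54 against 8.0, 8.94 and 7.53 (1.53 ± 0.31, adjusted p = 0.021). Kif11, the spindle kinesin, went from 5.83, 5.54 and 5.36 to 6.93, 7.79 and 6.40 (1.46, adjusted p = 0.019) and Cenpa, the centromeric histone, from 8.64, 7.88 and 7.72 to 9.29, 10.26 and 9.05 (1.45, adjusted p = 0.028). Cdc20, an activator of the anaphase-promoting complex, rose by 1.41 (adjusted p = 0.036) and the phosphatase Cdc25b by 0.89 (adjusted p = 0.048). In each of the 3 genes with values given, "+dox" 2 was the highest array and "-dox" 1 the highest control. The list mean was 7.75, 7.06 and 7.01 on the "-dox" arrays and 8.24, 9.17 and 7.73 on the "+dox" arrays, so "+dox" 3 was level with "-dox" 1. The count of 5 became 0 without "-dox" 2, without "-dox" 3 or with the 6 trametinib arrays alone, 1 without "+dox" 1, 2 without "+dox" 2 or with averaged probe sets, 3 without DMSO replicate 3 of either state, 4 with further quantile normalisation or after centring, 9 without "-dox" 1, 12 without "+dox" 3 and 20 with array weights. Cdc25b was lost with averaged probe sets (0.050), further quantile normalisation (0.054), centring (0.061) and the 6 trametinib arrays (0.10), and without replicate 2 or 3 of any of the 4 groups (0.061 to 0.18). The proliferation marker Mki67 changed by 1.15 (adjusted p = 0.11) and the checkpoint kinase Bub1 by 1.23 (0.21). Of 28 DNA replication genes 27 had a positive change with a median of 0.52, and 0 were called. The count was 6 without "+dox" 3 (median 0.87), 2 without "-dox" 1 (0.72), 4 with array weights and 1 with the replicate block, and the median was 0.23 without "+dox" 2. Over all genes the number that rose was 355 in the main fit and 508 with the replicate block. It was 520 without "-dox" 1, 330 without "+dox" 3 and 830 with array weights, so the main share does not apply to those counts.

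The entry point of the cycle was represented by 16 cyclin D and inhibitor genes, of which Ccnd1 and Rb1 rose, against 1.95% of all genes. Rb1, the retinoblastoma protein that cyclin D kinases inactivate, measured 11.08, 10.88 and 10.89 against 11.67, 11.47 and 11.38 (0.56, adjusted p = 0.012), a small step between groups that did not overlap. It was lost without "+dox" 1, "-dox" 2 or "-dox" 3 (adjusted p = 0.053, 0.063 and 0.058), with the 6 trametinib arrays (0.059), with averaged probe sets (0.072) and after centring (0.056). Ccnd2 changed by 0.74 (adjusted p = 0.16) and the inhibitor Cdkn1a by 0.29 (0.56).

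**Figure D5:**
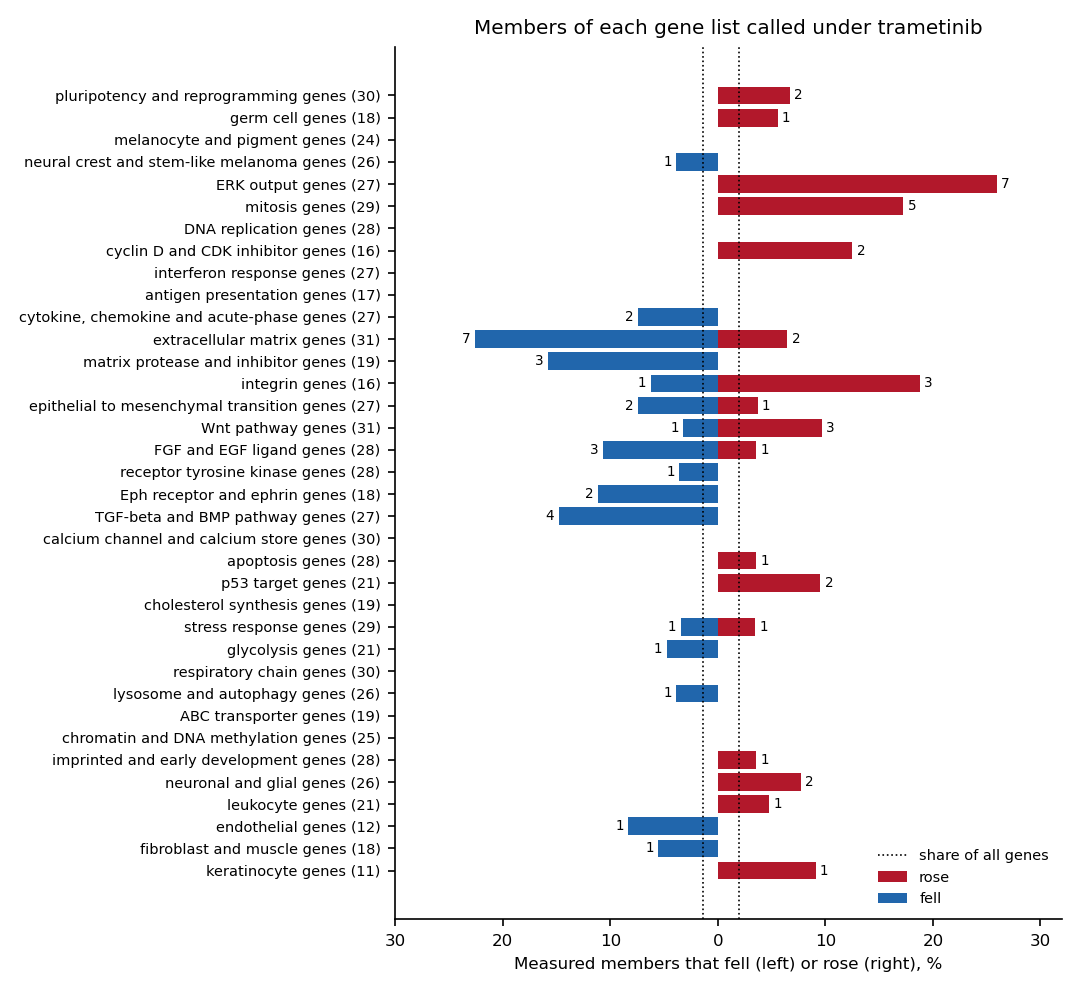
Share of the measured members of each of 36 gene lists (horizontal axis, %) that rose, to the right in red, or fell, to the left in blue, in reprogrammed against control cells under trametinib. The number of members measured is in brackets and the number called beside each bar, and the dotted lines mark the share of all genes, 1.95% higher and 1.42% lower. ERK output genes (7 of 27), integrin genes (3 of 16) and mitosis genes (5 of 29) have the longest bars to the right, and extracellular matrix genes (7 of 31) the longest to the left.

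Over all 36 lists 64 of 822 different member genes were called (7.79%, against 3.37% of all genes), 33 higher and 31 lower, and 9 lists had 0 called members. The lists were chosen with results of these data known, so these shares describe and do not test the choice.

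Of 16 integrin genes, which encode receptors for the matrix, 3 rose and 1 fell, against 1.95% and 1.42% of all genes, with a median of -0.12, and 12 were not called. The number that fell was 4 without "-dox" 1, 3 with array weights and 2 after centring, where 382, 597 and 425 of all genes fell. Itgb8, whose product binds latent TGF-beta, measured 6.46, 7.31 and 5.71 against 9.42, 9.41 and 9.37 (2.91 ± 0.45, adjusted p = 0.0052). Itga4, part of a fibronectin and VCAM1 receptor, read 5.45, 5.21 and 5.0 against 7.47, 7.76 and 7.13 (2.23 ± 0.31, adjusted p = 0.0027). Both rose by more than 4-fold, and both held in every alternative fit but the unmoderated test. Itga6, part of the laminin receptor, read 10.52, 11.05 and 11.48 against 11.94, 12.04 and 12.27 (1.07, adjusted p = 0.027) and was lost without "-dox" 2 or any 1 "+dox" array (0.065 to 0.091) and with the 6 trametinib arrays (0.076). Itga7, part of another laminin receptor, fell from 7.36, 8.42 and 8.40 to 6.36, 5.94 and 6.09 (-1.93 ± 0.33, adjusted p = 0.0094). Of 27 genes of the epithelial to mesenchymal transition 1 rose and 2 fell, against 1.95% and 1.42% of all genes. Cdh1, the epithelial cadherin, went from 3.74, 3.31 and 3.61 to 5.13, 5.45 and 4.38, a rise of at least 0.13 (adjusted p = 0.011) that left "+dox" 3 under background and was lost without "+dox" 1 or "-dox" 2 (0.052 and 0.055). Snai1, a repressor of Cdh1, read 6.25, 7.25 and 6.59 against 5.08, 5.04 and 5.17 (-1.60 ± 0.24, adjusted p = 0.0041), with no overlap. Zeb2, another such repressor, fell by 0.88 (adjusted p = 0.023) and was lost without "-dox" 1, "-dox" 2 or any 1 "+dox" array (0.054 to 0.11).

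Of 31 Wnt pathway genes 3 rose and 1 fell, against 1.95% and 1.42% of all genes, and the 3 that rose encode secreted proteins. Dkk2, a ligand of Wnt co-receptors that can inhibit the pathway, measured 3.23, 3.70 and 3.21 against 6.53, 6.72 and 7.47, a rise of at least 2.05 (adjusted p = 2.2e-04). Frzb, a secreted decoy that binds Wnt, read 3.6, 4.16 and 3.6 against 6.92, 7.01 and 6.77, at least 2.04 (adjusted p = 2.2e-05). All control arrays of both genes were under background. Wnt5a, a ligand of the non-canonical branch, read 4.71, 5.42 and 4.40 against 6.33, 6.99 and 7.38 and rose by at least 2.04 (adjusted p = 0.032). That call was lost without "-dox" 1, "-dox" 3, "+dox" 2 or "+dox" 3 (adjusted p = 0.061, 0.13, 0.10 and 0.10), without DMSO "+dox" replicate 2 or 3 (0.051 and 0.052) and with averaged probe sets (0.059). Wnt4 fell from 8.17, 8.22 and 8.59 to 6.57, 6.98 and 6.21 (-1.74 ± 0.30, adjusted p = 0.0088), with no overlap.

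Growth factors and their binding proteins were mostly lower where they were called. In the list of 28 FGF and EGF ligands and related factors 1 rose and 3 fell, against 1.95% and 1.42% of all genes. Fgf7, an epithelial growth factor made by mesenchymal cells, read 11.12, 11.21 and 10.65 against 7.92, 7.78 and 7.79 (-3.16 ± 0.36, adjusted p = 6.3e-04). Igfbp4, which sequesters insulin-like growth factors, read 7.2, 7.69 and 6.5 against 4.16, 4.64 and 5.56 and fell by at least 2.27 (adjusted p = 0.0097). Igfbp7 read 13.12, 13.72 and 13.30 against 12.54, 12.46 and 12.60 (-0.85, adjusted p = 0.017) and was lost without "+dox" 1, "+dox" 2 or "-dox" 2 (0.062 to 0.070) and with averaged probe sets (0.074). Fgf1 rose by 0.77 (adjusted p = 0.0022), from 3.78, 3.89 and 3.62 to 4.48, 4.46 and 4.67, all under background. Of 27 TGF-beta and BMP pathway genes 4 fell and 0 rose, against 1.42% and 1.95% of all genes. The ligand Bmp4 went from 9.53, 9.85 and 10.25 to 7.69, 7.77 and 8.36 (-1.94 ± 0.28, adjusted p = 0.0033) in every alternative fit but the unmoderated test. The ligand Tgfb3 fell by 1.22 (adjusted p = 0.015), the procollagen protease Bmp1 by 1.04 (0.028) and the ligand Tgfb1 by 1.03 (0.034). Without "+dox" 1, "+dox" 2, "-dox" 2 or "-dox" 3 these 3 were lost (adjusted p = 0.060 to 0.13) and the count fell to 1. Bmp1 and Tgfb1 were also lost without "+dox" 3 (0.057 and 0.079), and Tgfb1 without DMSO replicate 3 of either state (0.051 each) and with the 6 trametinib arrays (0.11).

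Of 28 receptor tyrosine kinase genes 1 fell and 0 rose, against 1.42% and 1.95% of all genes. Pdgfra, the receptor of platelet-derived growth factor A, read 7.75, 8.18 and 7.31 against 6.23, 6.35 and 7.07 (-1.20 ± 0.28, adjusted p = 0.042), and the call was lost with the replicate block (0.055), with the 6 trametinib arrays (0.091) and without "-dox" 1, "-dox" 2, "+dox" 1, "+dox" 2, DMSO "-dox" replicate 2 or 3, or DMSO "+dox" replicate 3 (0.058 to 0.17). Of 18 Eph receptors and ephrins 2 fell, against 1.42% of all genes. Efna1 went from 7.04, 7.61 and 7.15 to 6.10, 6.46 and 6.6 (-0.88, adjusted p = 0.035) and Ephb6 fell by at least 0.10 (adjusted p = 0.044). Efna1 was lost without "-dox" 2, "-dox" 3, "+dox" 1, "+dox" 2 or DMSO "-dox" replicate 2 or 3 (0.050 to 0.14) and Ephb6 without any single array other than DMSO "-dox" replicates 1 and 2 (0.062 to 0.15). Epha4, which is also an ERK output gene, read 6.05, 4.84 and 4.95 against 3.64, 3.41 and 3.23 and did not pass the test (adjusted p = 0.066), but passed it with the replicate block (0.0064) and with the 6 trametinib arrays (0.036).

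The reprogramming factors themselves were not called under trametinib. Pou5f1, which encodes Oct4, measured 5.61, 5.56 and 5.32 against 5.69, 6.15 and 5.79 (0.38, adjusted p = 0.31). Sox2 read 5.97, 7.66 and 7.21 against 6.57, 5.78 and 5.94 (-0.85, adjusted p = 0.49), and Klf4 10.34, 9.96 and 9.81 against 10.32, 9.99 and 9.74 (-0.02, adjusted p = 0.99). Under DMSO Pou5f1 was called higher in "+dox" cells (0.82, adjusted p = 0.016), from a mean of 4.63, under background, to 5.45. Its difference between the treatments was not called (-0.44, adjusted p = 0.50). Sox2 (-1.53, adjusted p = 0.091) and Klf4 (-0.15, 0.80) were not called under DMSO. Whether the probe sets of these 3 genes detect the transcripts of the vector was not tested. Of 30 pluripotency and reprogramming genes 2 rose, Cdh1 and Tfcp2l1, and 0 fell, against 1.95% and 1.42% of all genes. Tfcp2l1, a transcription factor of naive embryonic stem cells, went from 8.58, 7.01 and 7.88 to 11.10, 9.94 and 10.01 (2.53 ± 0.41, adjusted p = 0.0066), with no overlap. Of 24 melanocyte and pigment genes 0 were called, among them Mitf at -0.18 (adjusted p = 0.89) and Pmel at 0.04 (0.95).

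Ngfr, the nerve growth factor receptor that marks stem-like melanoma cells, measured 5.95, 5.88 and 6.25 against 7.67, 7.72 and 7.82. The groups did not overlap and were each tight, but the change of 1.71 ± 0.46 missed the threshold (adjusted p = 0.074) in the fit that shares 1 spread over the 12 arrays. It passed with the replicate block (0.041), with the 6 trametinib arrays alone (0.0021), with arrays weighted by quality (0.012) and without DMSO "-dox" replicate 1 or 2 (0.0079 and 0.029). Bex1, a small adaptor of that receptor, read 3.14, 2.99 and 3.00 against 5.39, 4.27 and 3.98 (1.5, adjusted p = 0.055), with both means under background, and passed with the block (0.039). Under DMSO Bex1 was called higher in "+dox" cells (4.34, adjusted p = 2.1e-04), from a mean of 2.86, under background, to 7.2. Its difference between the treatments was not called (-2.84, adjusted p = 0.057). Of 26 neural crest and stem-like melanoma genes 1 fell and 0 rose, against 1.42% and 1.95% of all genes. It was Ncam1, a neural adhesion molecule, with a change of -0.79 (adjusted p = 0.049) that was lost without any single array other than DMSO "-dox" replicate 1 (0.050 to 0.18). Of 26 neuronal and glial genes 2 rose, against 1.95% of all genes. Stmn2, a tubulin regulator of neurons, read 5.76, 5.04 and 4.71 against 7.76, 6.67 and 7.01 (1.98 ± 0.38, adjusted p = 0.017), and the synaptic vesicle protein Syt1 6.63, 6.21 and 6.26 against 7.59, 7.2 and 7.28 (0.99 ± 0.17, adjusted p = 0.0094). Stmn2 was lost without "+dox" 1, "-dox" 2 or "-dox" 3 (0.071 to 0.077) and Syt1 with averaged probe sets (0.068).

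Calcium channels, which the study followed up, showed no called gene among 30 channel and calcium store genes. Over all genes 3.37% were called, a share at which a list of this size can easily hold 0. The T-type channel gene Cacna1h read 3.89, 3.58 and 3.43 against 3.73, 3.66 and 3.83, all under background (0.11, adjusted p = 0.83), and Cacna1g was likewise under background (-0.01). Cacna1a, a P/Q-type channel gene, changed by -1.04 (adjusted p = 0.29) and passed only with arrays weighted by quality (0.025). The paper reports high Cacna1h expression in reprogrammed C790 cells by quantitative PCR at several days of reprogramming, and shows a western blot of its protein. For those measurements it states no trametinib treatment. On these arrays Cacna1h and Cacna1g did not rise above background in "+dox" cells, and differences below that level cannot be measured. For the other genes of the list 3 arrays a group limit the precision. Other genes were chosen as named in the study, though its text does not discuss them. Of these, Jarid2 changed by 0.57 (adjusted p = 0.40), Gata3 by 1.02 (0.13), Wnt5b by -0.21 (0.78) and Map3k8 by -0.58 (0.38). Jak3 changed by 0.04 (0.97), Cdc25a by 0.12 (0.73) and Cdc25c by 0.95 (0.16).

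Of 28 apoptosis genes 1 rose, against 1.95% of all genes. It was the anti-apoptotic Bcl2, at 7.40, 6.81 and 7.45 against 8.37, 8.52 and 8.55 (1.26 ± 0.19, adjusted p = 0.0041), where 2 of 5 probe sets were called and the averaged probe sets were not (0.063). The pro-apoptotic Bcl2l11, known as Bim, changed by -0.10, and Bmf by -1.07 (adjusted p = 0.40). Of 21 p53 target genes 2 rose, against the same 1.95%. Perp, a desmosome protein and p53 target, read 9.02, 8.15 and 8.6 against 10.59, 10.21 and 10.17 (1.73 ± 0.22, adjusted p = 0.0017). Eda2r, a TNF-family receptor, read 6.15, 5.11 and 5.08 against 6.77, 6.84 and 6.75 (1.34, adjusted p = 0.018) and was lost without "+dox" 1, "+dox" 2, "-dox" 2 or "-dox" 3 (0.065 to 0.087) and with the 6 trametinib arrays (0.062). Of 29 stress response genes 1 rose and 1 fell, against 1.95% and 1.42% of all genes. Psat1, an enzyme of serine synthesis, read 9.23, 8.92 and 8.65 against 10.55, 11.57 and 10.50 (1.94, adjusted p = 0.023) and was lost without "+dox" 1, "+dox" 2, "-dox" 2 or "-dox" 3 (0.053 to 0.098). Ddit4, an inhibitor of mTORC1, changed by -1.13 (adjusted p = 0.042), a call lost without any trametinib array or without DMSO "-dox" replicate 2 or 3 or "+dox" replicate 3 (0.052 to 0.17).

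In metabolism and the other lists single genes were called, against 3.37% of all genes. Of 21 glycolysis genes Pfkfb4, a regulator of the pathway, fell from 8.68, 8.90 and 8.72 to 7.68, 7.83 and 7.84 (-0.98 ± 0.12, adjusted p = 0.0012), in every alternative fit but the unmoderated test. Of 26 lysosome and autophagy genes the protease Ctsb fell by 0.50 (adjusted p = 0.020), a call lost without "+dox" 2, "-dox" 2 or "-dox" 3 (0.079 to 0.091). All 19 cholesterol synthesis genes had a positive change, with a median of 0.43, and 0 were called. The lists of 30 respiratory chain, 19 ABC transporter, 25 chromatin and DNA methylation and 17 antigen presentation genes also had 0 called. Of 18 germ cell genes Tdrkh rose (0.97, adjusted p = 0.014, lost without "+dox" 3 or "-dox" 2 at 0.054 and 0.069). Of 28 imprinted and early development genes Tbx2 rose (1.26, with both means under background, adjusted p = 0.013, lost without "+dox" 2 or "-dox" 2 at 0.057 and 0.058). Of 12 endothelial genes Egfl7 fell (-0.68, adjusted p = 0.012, lost without "-dox" 2 at 0.063, with the 6 trametinib arrays at 0.052 and with averaged probe sets at 0.18). The leukocyte list of 21 genes held Cd3g, the fibroblast and muscle list of 18 Pdgfra and the keratinocyte list of 11 Perp, each already given, and no other call.

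The same pair of cell states was compared under DMSO on the other 6 arrays, where 1118 genes (6.15%) were called, 522 higher (2.87%) and 596 lower (3.28%). Of these, 474 changed over 2-fold (2.61%), 201 higher (1.1%) and 273 lower (1.5%). Of the 614 genes called under trametinib, 239 were also called under DMSO in the same direction, 115 higher and 124 lower, which is 38.9% of the trametinib calls and 21.4% of the DMSO calls. Another 370 were called only under trametinib, of which 296 had the same sign under DMSO, and 5 were called in opposite directions. Calls in 1 treatment and not in the other do not show a difference by themselves. When the difference between the 2 changes was tested, 60 genes (0.330%) were called, 47 with a higher change under trametinib (0.258%) and 13 with a lower one (0.0715%). That count was 141 with the replicate block, and it ran from 13 to 200 as single arrays were left out. Centring each array on its median turned the balance of both, to 1148 higher and 464 lower among 1612 genes under DMSO, and to 49 higher and 168 lower among 217 genes for the difference. Of the 370 genes called only under trametinib, 22 were among the 60.

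Many of the largest changes had the same sign without the drug. Of genes named above, and chosen here after their values were seen, the change under DMSO was 8.04 for Mpzl2, 4.44 for Srgn, 3.84 for Limch1, 1.5 for Col4a1, 1.70 for Col4a2, 2.08 for Itga4, -2.85 for Col3a1, -4.11 for Col12a1, -3.04 for Fgf7 and -1.59 for Bmp4, and none of these 10 genes was called for the difference. For Mpzl2 and Limch1 the DMSO control mean was under background. Other genes had the opposite sign under DMSO, where the change was -0.88 for Wnt5a (difference 2.94, adjusted p = 0.10), -0.26 for Cdh1 (1.69, 0.093) and -0.15 for Fgf1 (0.92, 0.032). The matrix list had 3 genes higher and 8 lower under DMSO, against 2.87% and 3.28% of all genes, with a median of -0.55. The ERK output list had 1 higher and 3 lower under DMSO, with a median of -0.07, and the mitosis list had 0 called with a median of 0.39. Ccnd1 changed by 0.32 under DMSO, where its arrays stood at 12.06, 12.31 and 12.25 against 12.53, 12.50 and 12.56, and its difference of 1.18 was not called (adjusted p = 0.16). Bcl2 changed by 0.14 under DMSO, with a difference of 1.12 that was not called (adjusted p = 0.12). Ptgs2 changed by -0.41 under DMSO, with a difference of -3.24 ± 0.60 just above the threshold (adjusted p = 0.057), and Tnfaip6 by -0.05 (difference -2.41, adjusted p = 0.069).

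A smaller set rose in reprogrammed cells with the drug by more than it did without. Cd3g stood at 3.12, 3.32 and 3.62 in "-dox" DMSO cells and at 4.59, 4.98 and 4.91 in "+dox" DMSO cells, a change of 1.47 against 5.52 under trametinib, and the difference was 4.05 ± 0.28 (adjusted p = 2.3e-04). For Strip2 the "+dox" DMSO arrays read 3.6, 3.76 and 3.26, under background and far below the trametinib arrays (difference 2.87 ± 0.34, adjusted p = 0.0075). Frzb read 3.91, 4.63 and 4.50 in "+dox" DMSO cells, also under background (difference 2.44 ± 0.27, adjusted p = 0.0075). Khdc1a, an oocyte and embryo gene, rose under trametinib from 3.57, 3.55 and 3.89 to 6.48, 6.23 and 5.70 and changed by 0.15 under DMSO (difference 2.31 ± 0.27, adjusted p = 0.0075). Rpe65, the retinoid isomerase of pigment epithelium, rose from 4.16, 3.93 and 4.04 to 6.74, 6.46 and 6.17 and changed by 0.33 under DMSO (difference 2.08 ± 0.24, adjusted p = 0.0075). In these 5 genes the "+dox" trametinib arrays were the only group with a mean above background. Their changes under DMSO are therefore not measured, and the sizes of the 5 differences are not exact. The calls of these differences held when any single array was left out, with the highest adjusted p between 0.0019 and 0.035.

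Of 27 interferon response genes, which respond to viral infection, 0 were called under trametinib, against 3.37% of all genes. There 26 had a positive change and the median was 0.68. However, 8 rose without "-dox" 1 (median 1.02), a setting in which 520 of all genes rose. With arrays weighted by quality 4 rose, where 830 of all genes did. Under DMSO 0 rose and 15 fell, against 2.87% and 3.28% of all genes, with a median of -1.18. The list mean was 10.67, 9.49 and 9.51 on the "-dox" and 10.88, 10.37 and 10.42 on the "+dox" arrays under trametinib, with "-dox" 1 above 2 of the "+dox" arrays. Under DMSO it was 8.29, 9.24 and 8.45 against 6.86, 7.22 and 7.05. The difference was called in 7 of the 27 genes, against 0.33% of all genes, all with a higher change under trametinib.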

How the data were processed

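Biotin-labelled cRNA from 12 samples, 3 in each of 4 groups, was hybridised to Affymetrix mouse genome arrays. The deposited values are log2 intensities that the authors obtained by RMA (background correction, quantile normalisation and probe-set summary) in Chipster, and their number and range were checked (45101 probe sets, 2.15 to 14.46). Control probe sets (64) and those listed with several genes (932) or none (9160) were left out, and for each of 18193 genes the brightest probe set, by its mean across the 12 arrays, was used. Here 18032 genes were matched to RefSeq symbols by gene ID.

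One mean per group was fitted over all 12 arrays with limma 3.58.1 in R 4.3.3 (default eBayes), and the contrasts were "+dox" minus "-dox" under trametinib, the same under DMSO, and the difference between these changes. P-values were two-sided and Benjamini-Hochberg adjusted over all genes. Tables and figures were made with Python 3.11.15, pandas 2.3.3 and matplotlib 3.10.9. The background level was the 95th percentile of the mean of 86 odorant, vomeronasal and taste receptor probe sets. On simulated data 200 of 18193 genes were changed in the trametinib comparison. At a log2 change of 1, 73.5% were recovered with 5 false calls, and at 2, 94% with 9 false calls. The simulated noise was normal and independent between arrays, without an outlying array or a scaling shift. These rates therefore need not hold for the measured arrays.

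The genes, lists and tests were chosen with earlier results of these data known. Named were the 15 largest rises and falls without overlap and genes chosen as named in the study for these cells. Added were up to 4 called members of a list in its main direction, 2 in the other, and the 10 smallest p-values of the difference. Further members were named after their values were seen, as were Mpzl3, Vcan, Ptx3 and Tnfaip6.

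Replicate numbers are shared between groups by label only, with no stated meaning. Deviations of same-numbered arrays correlated at 0.286, 0.212 and 0.271 under trametinib and at 0.344, 0.170 and 0.225 under DMSO. Those of different-numbered arrays correlated at -0.356 to 0.124 under trametinib and at -0.378 to 0.312 under DMSO. The 0.312, for DMSO "+dox" replicate 3 with "-dox" replicate 2, lay above the same-numbered 0.170 and 0.225. The same-numbered values are at most a hint of pairing, from the data and not from the labels. The main fit did not use the pairing, so its standard errors and p-values ignore it. A fit with the replicate number as a block was an alternative, and blocked values are given where the call changes.

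Alternatives were the replicate block, the 6 arrays of the 2 groups alone, averaged or single probe sets, a filter at the background level, further quantile normalisation, median centring, array weights, robust trended moderation, other thresholds, an unmoderated equal-variance test per gene, and leaving out each array. Leaving out DMSO arrays in the trametinib comparison was chosen after seeing the data.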

Additional observations from a re-analysis of the deposited data

Results flagged for a closer look

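For 23 genes named by rule or described above, the change between reprogrammed and control cells differed between trametinib and DMSO by a test of the difference itself. Each value below is the change under trametinib minus the change under DMSO, on the log2 scale. Group means under background enter as read, so the size is not exact for genes that have them.

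Among genes that rose under trametinib, the difference was 4.05 for Cd3g, 2.87 for Strip2, 2.44 for Frzb, 2.31 for Khdc1a and 2.08 for Rpe65, whose arrays are given above. It was 1.5 for Slc6a20a, an amino acid transporter, and 1.38 for Prkcb, a protein kinase C, both of which rose from values under background to means still under it (by 1.61 and 1.36). Fgf1, also under background, had a difference of 0.92. Prss46, a serine protease gene, had a difference of -1.65. It fell from 6.51, 6.88 and 6.53 to 5.29, 5.05 and 5.03 under trametinib and changed by 0.14 under DMSO.

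Mfap3l, a membrane protein gene, had a difference of -1.91. It read 7.48, 7.25 and 7.53 in "-dox" and 9.47, 9.72 and 9.63 in "+dox" DMSO cells (2.19, adjusted p = 9.2e-05), and 9.55, 9.29 and 9.36 against 9.87, 9.86 and 9.31 under trametinib (0.28, adjusted p = 0.48). Its control cells under trametinib thus stood near the level of the reprogrammed cells.

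Of the interferon response genes, the difference was 4.65 for Ifit1, 4.60 for Iigp1, 3.59 for Rsad2, 3.44 for Gbp2, 3.43 for Oasl2, 3.36 for Gbp3 and 2.30 for Samd9l. All 7 fell in "+dox" cells under DMSO, by 2.26 (Samd9l and Gbp3) to 3.96 (Ifit1), and none was called under trametinib in the fit of all 12 arrays. Without trametinib "-dox" replicate 1, Gbp2 (1.5, adjusted p = 0.015), Gbp3 (1.56, 0.021) and Rsad2 (1.58, 0.017) rose under trametinib, and Gbp2 (0.028) and Gbp3 (0.049) also did with arrays weighted by quality. Samd9l read 9.53, 9.72 and 9.53 against 7.2, 7.43 and 7.37 under DMSO, and 10.90, 10.31 and 10.27 against 10.80, 10.50 and 10.31 under trametinib, where the groups overlap. Egr2, an immediate-early transcription factor gene, had a difference of 2.63, with a fall of 2.27 under DMSO and a change of 0.36 under trametinib, where both means were under background.

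In 5 genes the change was called in opposite directions, higher in "+dox" cells under trametinib and lower under DMSO. The difference was 2.61 for Zfp467, a zinc-finger gene (1.11 and -1.5), 1.34 for Dzip1, a ciliary protein gene (0.73 and -0.61), 1.31 for Rgma, a BMP co-receptor gene (0.68 and -0.63), 0.97 for the mismatch repair gene Msh3 (0.53 and -0.44) and 0.87 for Krba1 (0.47 and -0.41). The trametinib calls of these genes were not stable. All 5 were lost with the 6 trametinib arrays alone (adjusted p = 0.057 to 0.087), without "+dox" 1 (0.060 to 0.15) or "-dox" 3 (0.076 to 0.12), and each without at least 1 other array (0.051 to 0.16). With averaged probe sets Msh3 (0.72), Dzip1 (0.19), Krba1 (0.19) and Zfp467 (0.075) were lost. Krba1 (0.15 and 0.13), Rgma (0.078 and 0.072) and Zfp467 (0.059 and 0.056) were lost after centring and with further quantile normalisation, and Krba1 with robust trended moderation (0.074).

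Of the 23 differences, 10 were called whichever array was left out: Cd3g, Frzb, Khdc1a, Mfap3l, Prkcb, Prss46, Rpe65, Samd9l, Slc6a20a and Strip2. The other 13 were lost for at least 1 array. All 13 were lost without DMSO "+dox" replicate 2 (adjusted p = 0.056 to 0.093) or replicate 3 (0.050 to 0.13), and Zfp467 was lost otherwise only without DMSO "-dox" replicate 3 (0.061). The other 12 were also lost without trametinib "+dox" replicate 1 (0.056 to 0.094) or "-dox" replicate 3 (0.057 to 0.090), and many of them without DMSO "-dox" replicate 2 or 3, trametinib "-dox" replicate 2 or trametinib "+dox" replicate 2 or 3 (0.051 to 0.10).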

How the results depend on the processing

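Of 99 named genes that were called none changed direction under any alternative, and 48 stayed called under every alternative but the unmoderated test. The 614 genes called under trametinib became 1427 with array weights, 248 at an adjusted p under 0.01 and 0 by the unmoderated test, and 295 to 964 as single arrays were left out (964 without DMSO "-dox" replicate 1, 335 without "+dox" 1, 295 without "-dox" 2, 378 without "+dox" 2 and 352 without "-dox" 3). The 358 genes above 2-fold became 588, 204 and 0 under the same settings, 556 above 1.5-fold, and 235 to 544 without single arrays (544 without "-dox" 1, 235 without "-dox" 2). The 1118 genes under DMSO became 4086, 366 and 8, 550 with the 6 DMSO arrays alone, and 465 to 1297 without single arrays (583 without DMSO "-dox" replicate 3, 470 and 465 without DMSO "+dox" replicates 2 and 3). The 60 differences became 1066 with weights, 11 at the stricter threshold, 217 after centring, 141 with the replicate block, and 13 to 200 without single arrays. Among the fits without 1 array they stayed within 1.5 times the count only without trametinib "+dox" replicate 3 (46). The count was 44 with averaged and 60 with single probe sets, and 55 with the background filter. It was 57 with further quantile normalisation and 74 with robust trended moderation. The 64 list members became 132, 29 and 0 with weights, the stricter threshold and the unmoderated test, and 34 to 94 without single arrays (41 without "+dox" 1, 39 without "+dox" 2 and 34 without "-dox" 2). The replicate block gave 897 genes, 602 of them among the 614, and changed the call of no named gene other than Bex1, Epha4, Hmga2, Ngfr and Pdgfra. The causes of these shifts were not tested. The background level was 4.59 at the 90th and 5.42 at the 99th percentile, and changes of genes near it are bounds. With 3 arrays a group, differences near 2-fold can be missed.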
